A study of Mus musculus with 6 samples.

Results

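The genes described here serve the unfolded protein response of the endoplasmic reticulum (ER) and the amino acid response driven by the transcription factor ATF4. They are 40 genes chosen by name, of which 37 of the 30063 genes on the array had a row with a single gene symbol. Pdia4 is named on a row with several symbols, and Cebpz and Pycr1 were not matched to a row, so these 3 were not analysed here. Megakaryocytes, the polyploid platelet-forming cells of the marrow, were sorted by high side scatter, high CD41 and DNA content (at least 8N) from the bone marrow of female C57 mice. The AML group (3 arrays) came from mice with acute myeloid leukaemia induced by the fusion oncogene MLL-AF9, and the control group (3 arrays) from healthy mice. The labels give no age and no vehicle for the oncogene. The labels number the arrays as biological replicates 1 to 3 in each group, without naming animals, so p-values measure only the spread between arrays, which may be technical, and so few arrays limit the precision. Arrays are called AML 1 to 3 and control 1 to 3 here. Values are RMA expression levels on a log2 scale, differences are AML minus control, and ± is the SD over n = 3 arrays.

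Proteins that enter the ER are folded by chaperones such as BiP and by disulfide isomerases, and those that fail are sent back to the cytosol and degraded. When unfolded proteins accumulate, the membrane sensors ATF6, PERK (encoded by Eif2ak3) and IRE1 alpha (encoded by Ern1) raise chaperone and degradation genes through ATF6 itself and XBP1. PERK and the amino acid sensor GCN2 phosphorylate the translation factor eIF2 alpha, which lowers protein synthesis overall while ATF4 is translated, and ATF4 switches on amino acid synthesis and transport. Most of this signalling runs through cleavage, splicing and translation, which an array of transcript levels does not measure.

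The promoters of the ER genes and of the ATF4 targets carry different short elements, so sequence is shown first for members to which the results return. Promoters from 250 bases before to 50 bases after the annotated start were taken from RefSeq (GRCm38.p6), where 36 of the 40 genes had one. The ER stress element (ERSE), the site of ATF6 with NF-Y, was searched as CCAAT and CCACG with any 9 bases between them, on both strands. It was found in 8 of the 36 member genes, namely 6 of 11 chaperone genes (Hspa5, Hsp90b1, Calr, Canx, Pdia6 and Dnajc3) and 2 of 5 degradation genes (Syvn1 and Derl3), and in 0.137% of all 27025 genes with a promoter. The following windows run 5′ to 3′ to the base before the start, with the ERSE match in capitals, for Hspa5 (chr2:34771980-34772089, plus strand), Hsp90b1 (chr10:86705445-86705666, minus strand), Dnajc3 (chr14:118937817-118937931, plus strand), Calr (chr8:84846932-84847103, minus strand) and Syvn1 (chr19:6046466-6046575, plus strand).
Hspa5: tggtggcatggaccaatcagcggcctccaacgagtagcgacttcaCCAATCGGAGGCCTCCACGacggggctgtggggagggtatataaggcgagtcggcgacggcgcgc
Hsp90b1: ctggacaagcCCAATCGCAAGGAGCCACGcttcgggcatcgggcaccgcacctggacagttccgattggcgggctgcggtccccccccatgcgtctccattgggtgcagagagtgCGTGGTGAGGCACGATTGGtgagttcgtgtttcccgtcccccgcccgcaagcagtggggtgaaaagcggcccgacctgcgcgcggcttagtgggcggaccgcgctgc
Dnajc3: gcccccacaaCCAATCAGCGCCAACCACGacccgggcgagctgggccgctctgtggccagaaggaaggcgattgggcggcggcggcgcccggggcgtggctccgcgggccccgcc
Calr: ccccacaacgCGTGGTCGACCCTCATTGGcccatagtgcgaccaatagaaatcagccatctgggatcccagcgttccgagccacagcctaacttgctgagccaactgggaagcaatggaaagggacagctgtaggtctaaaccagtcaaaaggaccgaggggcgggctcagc
Syvn1: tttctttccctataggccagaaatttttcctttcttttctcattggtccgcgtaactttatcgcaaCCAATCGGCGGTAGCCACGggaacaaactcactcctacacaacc

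Hsp90b1 held 2 ERSE matches, on opposite strands. The second form of the element, ERSE-II, searched as ATTGG and CCACG with any 1 base between them, was found in Herpud1 and Dnajb11 among the members and in 0.0444% of all genes. The ATF4 element (CARE), searched as TGATGNAA, was found in 6 of 36 members (Asns, Slc7a11, Pycr1, Chac1, Trib3 and Herpud1) and in 4.51% of all genes. Shmt2, Psat1 and Psph held no CARE letters in this window. The ERSE and ERSE-II letters contain CCACG, which alone stood in 35.5% of all genes. The next windows show the CARE match in capitals for Asns (chr6:7693210-7693319, minus strand), Slc7a11 (chr3:50443614-50443723, minus strand) and Chac1 (chr2:119351039-119351241, plus strand), and both the CARE and the ERSE-II match for Herpud1 (chr8:94386307-94386428, plus strand).
Asns: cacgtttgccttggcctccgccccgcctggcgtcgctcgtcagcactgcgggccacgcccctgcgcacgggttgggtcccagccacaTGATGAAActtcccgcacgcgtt
Slc7a11: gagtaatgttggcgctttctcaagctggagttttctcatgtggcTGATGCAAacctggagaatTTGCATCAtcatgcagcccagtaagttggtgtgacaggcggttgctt
Chac1: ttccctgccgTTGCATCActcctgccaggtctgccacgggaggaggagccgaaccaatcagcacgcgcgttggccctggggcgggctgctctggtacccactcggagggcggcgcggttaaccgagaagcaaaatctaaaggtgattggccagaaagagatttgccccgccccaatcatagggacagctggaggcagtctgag
Herpud1: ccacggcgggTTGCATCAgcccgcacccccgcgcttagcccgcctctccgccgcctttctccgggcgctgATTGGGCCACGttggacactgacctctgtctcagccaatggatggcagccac

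Herpud1 was the only one of the 36 members with a promoter to hold both an ERSE-type and a CARE match. Slc7a11 held 2 CARE matches on opposite strands. A match is a description of the letters and not evidence of binding.

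Of the 37 measured genes, 4 rose and 4 fell in AML at an adjusted p under 0.05 (limma with Benjamini-Hochberg adjustment over all 30063 genes). The 4 that rose are enzymes of serine, glycine and asparagine synthesis, Shmt2, Psat1, Asns and Psph. The 4 that fell are the sensor genes Atf6 and Eif2ak3, the degradation gene Herpud1 and the cystine transporter gene Slc7a11. These 8 are 21.6% of the members. Over all genes 10.7% were called, 4.49% higher and 6.25% lower. Among the 13153 genes above background level, where 36 of the 37 members lay, 17.1% were called, 4.97% higher and 12.1% lower. The members' share was 10.8% in each direction, which for the falls lies near that background. Background level here is a mean of 5.53, the 95th percentile of 1387 olfactory and vomeronasal receptor genes, and Derl3 lay below it in both groups. Differences over all genes had a median of +0.11, with 20669 estimates above 0 and 9394 below 0. After centring each array on its median 3 members were higher and 7 lower, with 15.7% of all called genes higher against 41.8% before. The median gene level, 5.25, lay below the background level, so this centring aligned the arrays at a level below background. The receptor genes had medians of 3.53 to 3.85 on AML and 3.32 to 3.51 on control arrays. Median differences among genes above background alone were not taken. Arrays also counted: 2 members rose and 1 fell without AML 1, 1 and 1 without AML 2, 1 and 0 without control 2, and 1 and 0 without control 3.

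**Figure D1:**
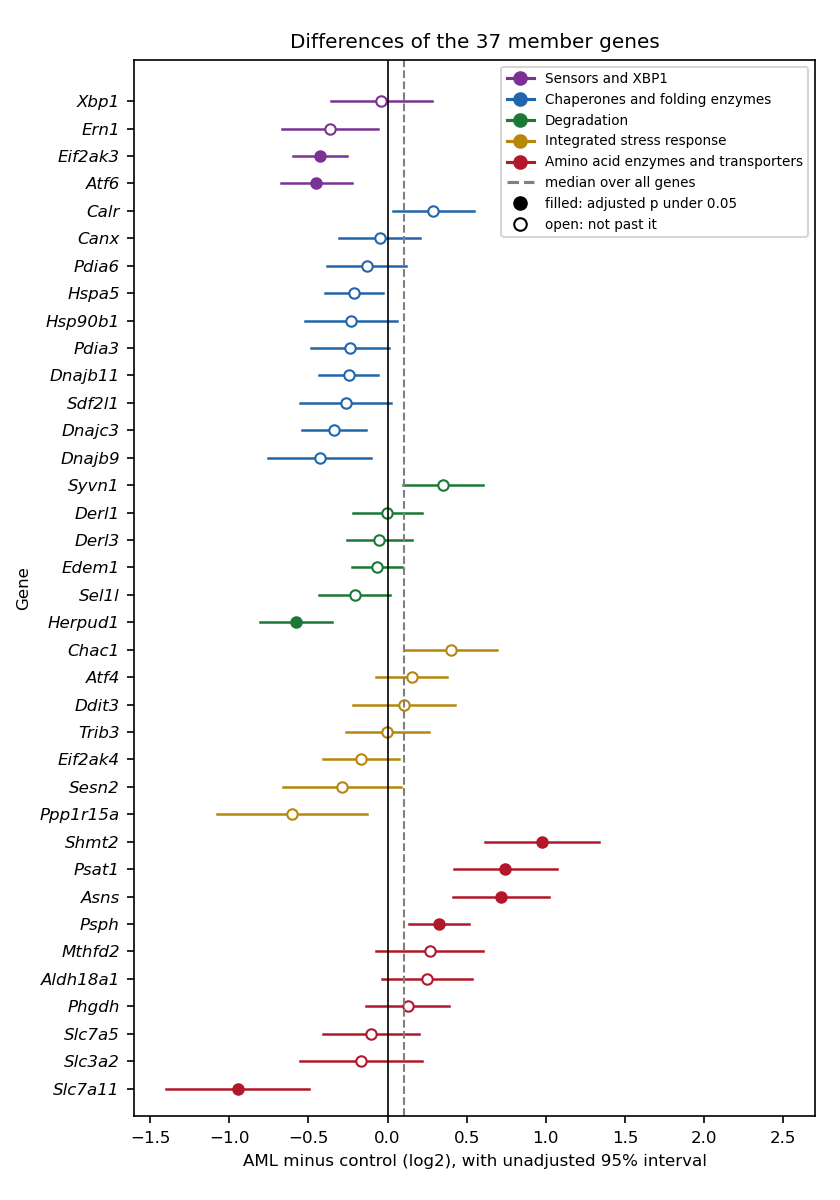
Difference of each of the 37 measured genes, AML minus control on the log2 scale, with the unadjusted 95% interval of the limma fit, coloured by role and ordered by size within it. Filled points passed an adjusted p of 0.05, the dashed line is the median over all genes (+0.11), and the 4 filled points to the right of 0 are Shmt2, Psat1, Asns and Psph.

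Transcripts of other marrow cells also differed between the sorts. All 8 neutrophil genes fell, and their summed level (log2 of the sum of unlogged values) was 12.3 to 12.7 in AML and 14.1 to 14.4 in control, with Ly6g lower by 1.42 (a call lost without control 2 or control 3, adjusted p 0.0521 to 0.059) and S100a8 by 2.16 on the log2 scale. Of 11 monocyte and macrophage genes 8 fell (4 without control 2 and 4 without control 3), with a summed level of 12.5 to 13.0 against 13.0 to 13.1, Csf1r lower by 1.16 and Ly6c2 not past the threshold (12.27 ± 0.30 against 11.95 ± 0.10). Of 7 basophil and eosinophil genes 5 fell, among them Mcpt8 (by 1.95) and Prg2 (by 0.44, a call lost without any single array but AML 3), with a summed level of 12.4 to 12.8 against 13.2 to 13.4. Plasma cells are secretory cells rich in ER proteins. Of 9 plasma cell genes 4 fell, Jchain, Ighm, Irf4 and Prdm1, and 1 rose, Fkbp11 (2 falls without control 2), with a summed level of 9.15 to 9.47 against 10.6 to 11.1. Fkbp11 rose by +0.85 (adjusted p = 0.00589) and kept its call in all 14 alternatives. Jchain was lower by 2.14 and not shown above background in AML, and its call was lost without AML 2, control 2 or control 3 (adjusted p 0.078 to 0.104), while Sdc1 and Mzb1 lay near or below background in both groups. B cell genes (4 of 7 fell, and 2 without AML 2, AML 3, control 1 or control 2), plasmacytoid dendritic cell genes (1 of 6 fell, Siglech) and erythroid genes (1 of 3 fell, Alas2) were lower or not called, and of the other defining markers Cd79a fell by 0.43, a call lost without any single array but control 3 (adjusted p up to 0.119), and Cox6a2 and Klf1 were not called. Of 6 granulocyte-monocyte progenitor genes 1 rose, Ctsg, with a summed level of 12.1 to 12.4 against 11.7 to 12.1 and its call lost without AML 1, AML 2 or control 2 (adjusted p 0.0682 to 0.0915), and Mpo and Elane were not called. Of 12 megakaryocyte genes 0 were called by limma, Pf4 and Itga2b among them, and the groups overlapped in all 12. Their summed level was 13.8 to 14.3 in AML and 13.8 to 14.2 in control. Of the 12 estimates 10 were above 0, with a median of +0.22 that was -0.00 without AML 3. In these bulk samples fewer cells of a type and less RNA per cell cannot be told apart, and the part of any of these cells in the results below was not tested.

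Of the 4 sensor-arm genes 2 fell and 0 rose, beside 12.1% lower and 4.97% higher among all genes above background. All 4 estimates were below 0 (3 of 4 under cyclic loess). Atf6, whose released fragment is itself a transcription factor, stood at 7.47, 7.26 and 7.55 on AML 1, 2 and 3 and at 7.80, 7.88 and 7.95 on control 1, 2 and 3. All 3 AML values lay below the control values, and the gene fell by 0.45 (SE 0.09, 1.37-fold, adjusted p = 0.0299). Eif2ak3, the gene of PERK, stood at 5.79, 5.84 and 5.84 in AML and at 6.18, 6.24 and 6.33 in control. These groups did not overlap either, and the gene fell by 0.43 (SE 0.07, 1.34-fold, adjusted p = 0.0153). Ern1, the gene of the RNase IRE1 alpha, stood at 7.09, 6.89 and 6.83 against 7.06, 7.49 and 7.35, a difference of -0.36 (95% interval -0.66 to -0.06, adjusted p = 0.108), with AML 1 just above control 1. Xbp1, the transcription factor whose mRNA IRE1 alpha splices, stood at 8.37 ± 0.26 against 8.41 ± 0.09, a difference of -0.04 (95% interval -0.36 to 0.28). Its row gives one value and does not separate the spliced from the unspliced form. The calls of Atf6 and Eif2ak3 were lost without AML 1, AML 2, control 2 or control 3 (adjusted p 0.0657, 0.0726, 0.114 and 0.114 for Atf6, and 0.0522, 0.0505, 0.0745 and 0.0671 for Eif2ak3), while Ern1 passed without control 1 (adjusted p = 0.0486). Atf6 also lost its call under cyclic loess (adjusted p = 0.0672), where Xbp1 turned above 0. Xbp1 also lay above 0 with array weights (+0.05) and without AML 3 (+0.11).

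Of 10 measured chaperones and folding enzymes 0 passed limma's adjusted threshold, and 9 of the 10 estimates were below 0, as deposited and after quantile normalization, median centring or cyclic loess, with a median of -0.23 beside +0.11 over all genes. Hspa5, the gene of the main ER chaperone BiP, stood at 8.58, 8.43 and 8.51 in AML and at 8.64, 8.73 and 8.78 in control. The groups did not overlap, but the difference of -0.21 (95% interval -0.39 to -0.03) did not pass (adjusted p = 0.113). Dnajc3, a cochaperone of BiP, came nearest to the threshold, at 7.23, 7.23 and 7.04 against 7.48, 7.45 and 7.59 (difference -0.34, adjusted p = 0.0501). Dnajb9 and Dnajb11, cochaperones of the same family, differed by -0.43 and -0.25 (adjusted p = 0.0891 and 0.0854). All 3 cochaperones passed downward after median centring (adjusted p 0.0253 for Dnajc3, 0.0489 for Dnajb9 and 0.0381 for Dnajb11), and Dnajc3 also under cyclic loess (0.0401). Calr, the gene of the lectin chaperone calreticulin, was the one estimate above 0, at 9.25, 9.18 and 8.87 against 8.76, 8.82 and 8.85. Its 3 AML values lay above the controls, AML 3 only just, and the difference was +0.29 (95% interval 0.03 to 0.54, adjusted p = 0.123), which passed without AML 3 (+0.40, adjusted p = 0.0217) and under cyclic loess (0.0408). Its membrane-bound relative Canx stood at 9.45 ± 0.13 against 9.50 ± 0.15. The isomerase genes Pdia3 and Pdia6, Hsp90b1 (the gene of GRP94) and Sdf2l1, a partner of the J-proteins, differed by -0.24, -0.13, -0.23 and -0.27, with adjusted p from 0.164 to 0.392. With an unadjusted p under 0.05 there were 5 chaperone genes, Hspa5, Calr, Dnajb9, Dnajb11 and Dnajc3.

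**Figure D2:**
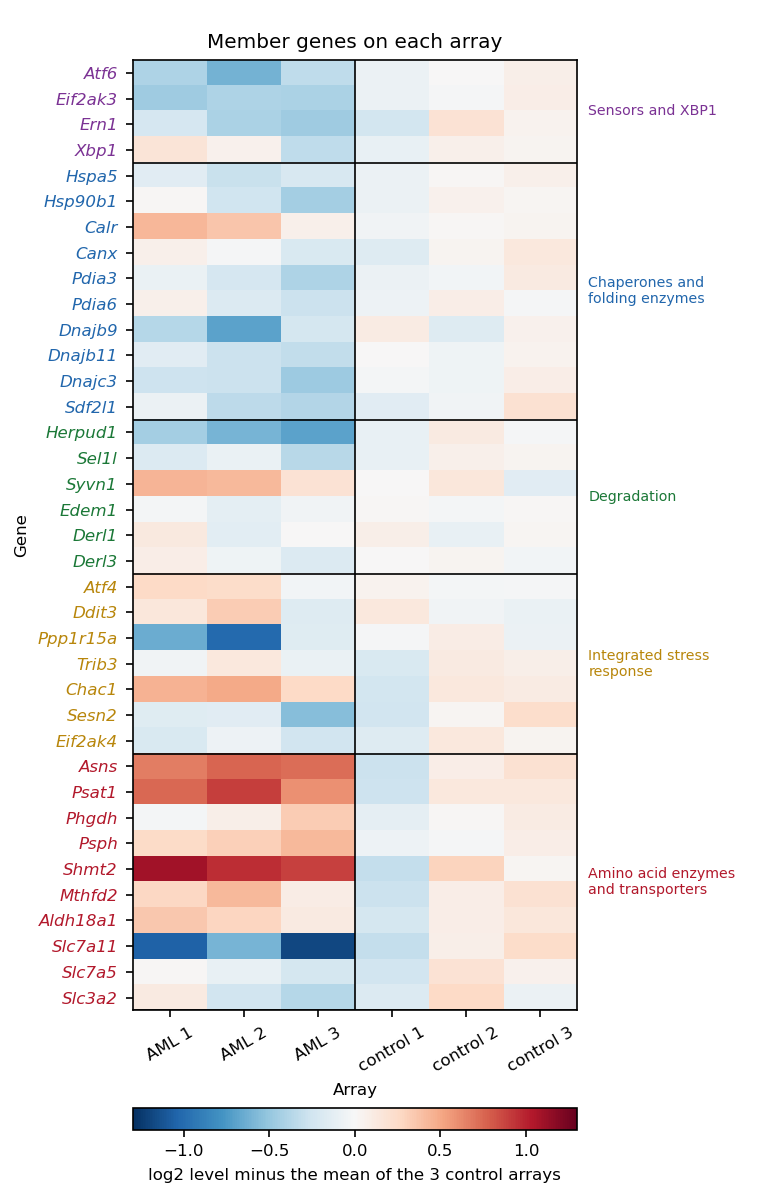
Level of each measured gene on each array, as its log2 value minus the mean of the 3 control arrays (red higher, blue lower), with genes grouped by role. Shmt2, Psat1 and Asns are red on all 3 AML arrays, Slc7a11 and Herpud1 are blue on all 3, and each of the 7 amino acid enzymes is lower on control 1 than on the other controls.

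The genes that remove misfolded proteins did not move together. Herpud1, which encodes a membrane scaffold of the degradation complex, stood at 9.50, 9.34 and 9.25 in AML and at 9.85, 10.05 and 9.92 in control. It fell by 0.58 (SE 0.10, 1.49-fold, adjusted p = 0.0139) with no overlap, and its call was lost without AML 2, control 2 or control 3 (adjusted p 0.0510, 0.0672 and 0.0595). Syvn1, the gene of the ubiquitin ligase HRD1, stood at 7.12, 7.10 and 6.87 in AML and at 6.69, 6.83 and 6.53 in control. Its AML values were all above its control values, and its difference of +0.35 (95% interval 0.09 to 0.61, adjusted p = 0.0803) passed without AML 3 (adjusted p = 0.0437) and after quantile normalization (0.0463). Sel1l, the adaptor of HRD1, differed the other way by -0.21 (95% interval -0.43 to 0.02). Edem1, which recognises misfolded glycoproteins, and the derlin genes Derl1 and Derl3 differed by -0.07, -0.00 and -0.05, with intervals that lay between -0.26 and 0.22. Derl3, which secretory cells such as plasma cells use, was not shown above background in either group (5.40 ± 0.13 and 5.45 ± 0.04).

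Of 7 measured genes of the integrated stress response, 0 passed limma's adjusted threshold, and 2, Ppp1r15a and Chac1, had an unadjusted p under 0.05. Atf4, the transcription factor of the response, stood at 8.90, 8.88 and 8.62 in AML and at 8.69, 8.62 and 8.63 in control. AML 3 lay just below the 3 controls and the other two above them, and the difference was +0.15 (95% interval -0.07 to 0.38, adjusted p = 0.281). Ddit3, the gene of the transcription factor CHOP, stood at 9.28 ± 0.25 against 9.18 ± 0.12, and its second row, an unmapped transcript, at 9.21 ± 0.33 against 8.96 ± 0.17. Chac1, an enzyme that degrades glutathione, stood at 7.50, 7.54 and 7.30 against 6.805, 7.18 and 7.15, without overlap, a difference of +0.40 (95% interval 0.11 to 0.69, adjusted p = 0.0779), which passed after quantile normalization (adjusted p = 0.0496) and cyclic loess (0.0275). Ppp1r15a (GADD34), the phosphatase subunit that reverses eIF2 alpha phosphorylation, varied most between AML arrays, at 7.43, 7.06 and 7.92 against 8.06, 8.17 and 8.00. Its difference of -0.60 (95% interval -1.08 to -0.13, adjusted p = 0.0961) became -0.83 without AML 3 (adjusted p = 0.0120). The pseudokinase gene Trib3, the leucine sensor gene Sesn2 and Eif2ak4, the gene of GCN2, differed by -0.00, -0.29 and -0.17, with adjusted p from 0.235 to 0.990.

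The amino acid genes held the largest changes among the members, with 4 of 7 enzyme genes higher and 1 of 3 transporter genes lower. All 7 enzyme estimates were above 0 (median +0.33) and all 3 transporter estimates below 0 (median -0.17), as deposited and under the same 3 other scalings. Over all 30063 genes 20669 estimates were above 0 and 9394 below 0 as deposited. Serine is made in 3 steps encoded by Phgdh, Psat1 and Psph. Phgdh, the first, stood at 7.33, 7.42 and 7.68 in AML and at 7.23, 7.36 and 7.46 in control, with overlap (difference +0.13, 95% interval -0.14 to 0.39, adjusted p = 0.436). Psat1, the second, stood at 7.16, 7.31 and 7.01 against 6.14, 6.55 and 6.55. It rose by +0.74 (SE 0.14, 1.68-fold, adjusted p = 0.0198), and every AML value lay above every control value. Psph, the last, stood at 6.10, 6.16 and 6.27 against 5.78, 5.83 and 5.94 and rose by +0.33 (SE 0.08, 1.25-fold, adjusted p = 0.0479). Psph lost its call without any single array (adjusted p 0.0698 to 0.165) and after median centring (adjusted p = 0.202), quantile normalization (0.0598) or cyclic loess (0.0744).

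Shmt2, the mitochondrial enzyme that turns serine into glycine, rose most among the members. It stood at 8.37, 8.24 and 8.17 in AML and at 6.97, 7.57 and 7.31 in control, a rise of +0.98 (SE 0.15, 1.97-fold, adjusted p = 0.0111). Every AML value lay above every control value. Mthfd2, the mitochondrial folate enzyme that takes up the carbon released, stood at 7.47, 7.62 and 7.30 against 6.92, 7.28 and 7.39, with overlap (difference +0.26, 95% interval -0.08 to 0.61, adjusted p = 0.230). Asns, asparagine synthetase, stood at 7.94, 8.03 and 8.01 against 6.997, 7.36 and 7.48 and rose by +0.71 (SE 0.13, 1.64-fold, adjusted p = 0.0178) without overlap. Aldh18a1, which starts proline synthesis, stood at 6.36 ± 0.12 against 6.11 ± 0.20 (adjusted p = 0.193). Leaving out an array ended the calls of Asns without AML 2 or control 2 (adjusted p 0.0611 and 0.0638), of Psat1 without AML 1, AML 2, control 2 or control 3 (adjusted p 0.0541 to 0.0632), and of Shmt2 without control 3 (adjusted p = 0.0509).

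**Figure D3:**
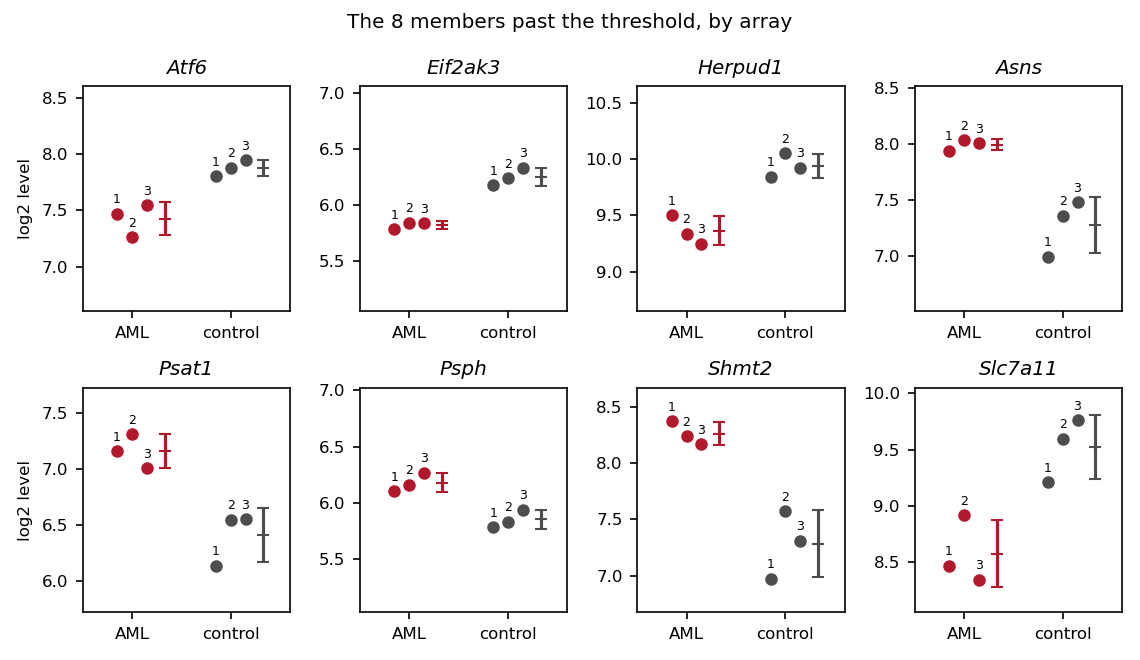
Log2 level on each array of the 8 genes past the threshold, with the array number above each point and the mean ± SD beside it, each axis spanning the same 2 log2 units. In all 8 genes, picked by the threshold on these same arrays, the 3 AML values lie beyond the 3 control values, as in 41.3% of all genes. Control 1 is the lowest control in all 8 genes, whichever way the gene moved.

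Control 1 was the lowest of the controls in 27 of the 37 members, against 31.7% of all genes, among them all 7 enzyme genes, all 3 transporter genes, all 4 sensor-arm genes and 7 of 10 chaperones. Without it the rises of Asns and Psat1 were smaller, +0.57 and +0.61, and still passed (adjusted p 0.0175 and 0.0286), and that of Shmt2 was +0.82 (adjusted p = 0.0151). Control 1 also had the lowest summed level of the progenitor genes, 11.7 against 12.1 on both other controls. Its summed level of the megakaryocyte genes was the highest of the controls, 14.2 against 13.8 and 13.9. AML 3 was the lowest AML array in 27 of the 37 members, against 40.5% of all genes, among them 8 of 10 chaperones. Of the members 36 lay above background, against 43.8% of all genes. The receptor genes used for background had medians of 3.51 on control 1 (3.34 and 3.32 on controls 2 and 3) and 3.85 on AML 3 (3.56 and 3.53 on AML 1 and 2). Shares of lowest arrays among genes above background were not taken, so 31.7% and 40.5% are not like comparisons. The part of these arrays' other differences in the results was not tested.

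Of the 3 transporter genes 1 fell, Slc7a11, and 0 rose. Slc7a11, the cystine transporter subunit that feeds glutathione synthesis, stood at 8.47, 8.92 and 8.34 in AML and at 9.21, 9.60 and 9.76 in control. It fell by 0.95 (SE 0.19, 1.93-fold, adjusted p = 0.0261) without overlap, and its call was lost without AML 1, control 2 or control 3 (adjusted p 0.0701, 0.105 and 0.0977). Slc3a2, the heavy chain that pairs with it, stood at 8.29, 7.92 and 7.80 against 7.99, 8.43 and 8.09, with overlap (difference -0.17, 95% interval -0.55 to 0.22). Slc7a5, the large neutral amino acid transporter that uses the same heavy chain, stood at 7.76 ± 0.12 against 7.87 ± 0.23 (95% interval -0.41 to 0.20). Slc7a11 moved opposite to Asns, and the windows printed above show CARE letters for both. Neutrophil and macrophage genes fell in the same sorts, as given above, and the part of those cells in the transporter values was not tested.

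**Figure D4:**
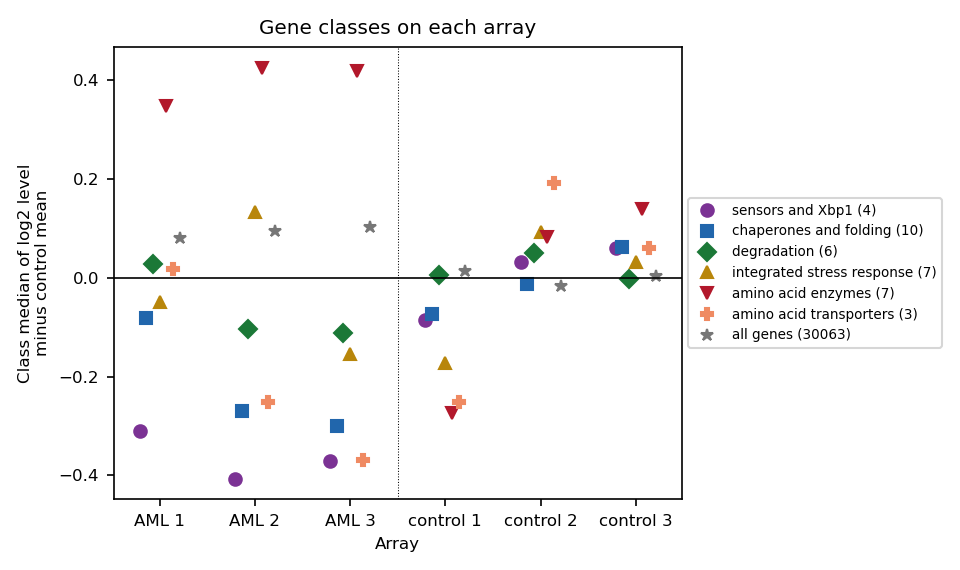
Median over the genes of each class, on each array, of the log2 level minus the gene's control mean, with the number of genes in brackets. On the 3 AML arrays the amino acid enzymes sit at +0.35, +0.42 and +0.42, the sensors at -0.31, -0.41 and -0.37 and the chaperones at -0.08, -0.27 and -0.30, while all genes sit at +0.08 to +0.10.

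Sensors, chaperones and degradation genes together (20 measured) had 3 genes lower and 0 higher, with 18 estimates below 0 (15 under cyclic loess) and a median of -0.22. The 7 amino acid enzymes had 4 higher and 0 lower. Among all genes above background 12.1% were called lower and 4.97% higher, and the 3 falls among the 20 lie near that share. After centring on array medians the medians of the sensors, chaperones and degradation genes were -0.51, -0.35 and -0.18, so the size of these shifts rests on the scaling. That centring aligned the arrays at a level below background, as given above. Groups did not overlap in 9 of the 20 genes with AML below and in 2 with AML above, against 13.1% and 28.2% of all genes (41.3% in either direction). Only 43.8% of all genes lay above background, against all of these 20 but Derl3. Overlap shares among genes above background were not taken, so these shares are not a like comparison. The difference between the classes was described and not tested. The members with ERSE letters were called in neither direction (0 of 8 by limma, with 4 at an unadjusted p under 0.05, Hspa5 and Dnajc3 below 0 and Calr and Syvn1 above). Outside the members 21 further genes with ERSE letters were measured, of which 4 rose (Xlr3a, Xlr3b, Xlr3c and Tdrd9), none of them shown above background in either group, and 1 fell, Ero1b. The 3 Xlr3 genes are close copies of each other, so their separate values are uncertain. Creld2 did not pass (8.53 ± 0.18 against 8.45 ± 0.11).

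Related genes outside the members give the surroundings of these changes. Of 29 further ER stress genes 3 fell and 0 rose (5 and 0 after median centring, 3 and 2 under cyclic loess, 3 and 1 without AML 3, 1 and 0 without control 2 and likewise without control 3), with a median of -0.07 that was 0.00 under cyclic loess and +0.01 without AML 3. The 3 falls lie near the 12.1% called lower among genes above background. Estimates were above 0 in 11 genes and below 0 in 18, against 20669 and 9394 over all genes. Groups did not overlap in 3 with AML above and 7 with AML below, against 28.2% and 13.1% of all genes. Only 43.8% of all genes lay above background, whereas 2 of the 29 were not shown above it in AML and 0 in control. These shares are therefore not a like comparison. The highest estimate was that of P4hb, +0.45 without overlap (adjusted p = 0.0575). Fkbp11, counted above among the plasma cell genes, is not in this list. The oxidase genes Ero1a and Ero1b, which drive disulfide bond formation, fell by 0.62 and 0.45 (adjusted p = 0.0151 for both), and Selenok, a membrane selenoprotein of the ER, fell by 0.54. Ero1b was not shown above background in AML. Hyou1, a large ER chaperone, stood at 6.65 ± 0.05 against 6.64 ± 0.04, and Manf was not analysed here. The calls of Ero1a and Ero1b were lost without control 2 or 3, and those of Ero1a without AML 2 and of Ero1b without AML 1 (adjusted p 0.0507 to 0.0789).

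Of 25 further ATF4 and amino acid response genes 4 rose and 3 fell. Among genes above background 4.97% were called higher and 12.1% lower, and the 3 falls lie near that share. The rises numbered 1 after median centring and without AML 1, AML 2 or control 1, 2 without control 2 and 0 without control 3, and the falls 5 after median centring, 2 without AML 1 or AML 2 and 1 without control 2 or control 3. Shmt1, the cytosolic counterpart of Shmt2, rose by +0.51 from 5.69 ± 0.05 to 6.20 ± 0.11, and Slc1a5, a glutamine transporter, rose by +0.50 from 7.36 ± 0.15 to 7.86 ± 0.11. Got1, an aspartate aminotransferase, fell by 0.66 and Nupr1, a stress-induced chromatin protein, by 0.60. The transcription factor gene Atf3 fell by 0.53 (adjusted p = 0.0463), and Cebpb stood at 7.18 ± 0.26 against 7.43 ± 0.05 (adjusted p = 0.213). The other 2 that rose, Stc2 and Cth, were not shown above background in either group. Got1 kept its call without each array in turn, whereas Shmt1 and Nupr1 lost theirs without control 2 or 3 (adjusted p 0.0533 to 0.0821), Atf3 without any single array but AML 3 and under quantile normalization or cyclic loess, and Slc1a5 without any single array but AML 3 and control 2 and after median centring.

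Among the other arms, 0 of 16 aminoacyl-tRNA synthetase genes passed limma's threshold (3 at an unadjusted p under 0.05, Kars, Lars and Wars, all higher), with a median of +0.18, or +0.06 after median centring. Of 11 genes of eIF2 and its regulators Eif2ak1, the heme-regulated eIF2 alpha kinase, fell from 8.16 ± 0.17 to 7.22 ± 0.12 and kept its call in all 14 alternatives (highest adjusted p 0.0273). Eif2b3, a subunit of the exchange factor for eIF2, rose by +0.51 and lost its call without any single array but AML 3 and after median centring (adjusted p 0.0798 to 0.109). Of 10 cytosolic heat shock genes 1 fell, Hspa1a, by 0.55, a gene with a near-identical copy, so that its value is uncertain. The call of Hspa1a was lost without any single array but AML 3 (adjusted p 0.0594 to 0.131). Among all genes above background 12.1% were called lower and 4.97% higher. The 1 fall among the 11 and the 1 among the 10 lie near the first share.

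**Figure D5:**
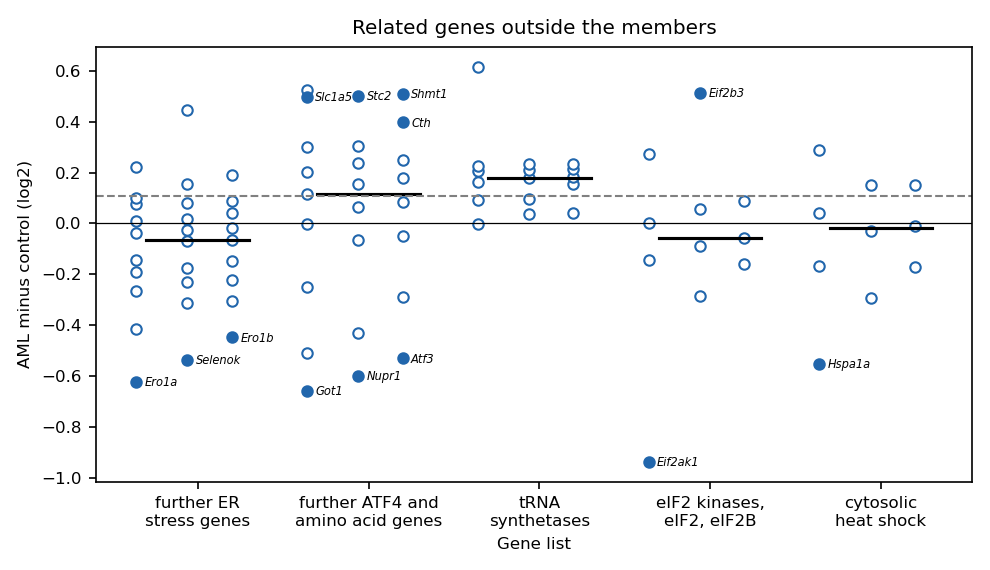
Difference, AML minus control on the log2 scale, of each measured gene in 5 related lists (filled and named where past an adjusted p of 0.05), with the list median as a black bar and the median over all genes as a dashed line. The synthetases hold no filled point and a median of +0.18, and Eif2ak1 has the largest fall shown.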

How the data were processed

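Total RNA (250 ng) of sorted megakaryocytes was labelled and hybridised to Affymetrix whole-transcript arrays, 3 of AML and 3 of control mice, per the labels' protocols. The authors deposited log2 expression values made with RMA, per the submitters' processing notes (no version there). RMA gives arrays one distribution of probe intensities, not of gene values, so a shift common to most genes is lost in part. The array's genome build: not given in sources used here.

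The 72688 rows were named through the platform annotation, with a symbol listed repeatedly on a row counted once: 30604 rows had 1 symbol and 2146 several. Symbols were updated through RefSeq GRCm38.p6 (22818 rows by gene number, 7476 by symbol, 308 by synonym, 2 unmatched). The row with the highest mean was kept for 429 genes with several rows. Median gene levels were 5.29 to 5.32 on AML and 5.16 to 5.24 on control arrays.

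All 30063 genes were fitted with limma (lmFit, eBayes, two-sided, no filter, Benjamini-Hochberg, threshold 0.05). Members were counted from that fit, with no test over the list. All 40 members were named, of each related list up to 4 called genes with the smallest p plus Atf3, Cebpb, Creld2, Manf and Hyou1, and the first 2 markers of each cell type. Other genes were chosen after their values were seen. Members and lists were chosen with earlier results of these data known. Alternatives were a replicate block, a variance trend, array weights, quantile normalization, median centring, cyclic loess, averaging the rows of a gene, leaving out genes below the median level, a 1.5-fold minimum, and leaving out each array.

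Replicate numbers 1 to 3 are shared by the groups. Same-numbered arrays deviated together with correlations across genes of -0.361, 0.142 and -0.291, so the numbers were not taken as pairs.

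The fit was tested on data simulated for this comparison over 30063 genes, without array effects or correlation between genes. It recovered 20 of 50 genes changed 1.5-fold and 42 of 50 changed 2-fold. Only 50 genes were changed at each fold size, whereas 3230 genes were called in the data. The adjusted threshold was therefore stricter in the simulation, and recovery in the data may differ. Software: limma 3.58.1 and data.table (1.17.8) under R 4.3.3, and numpy 2.4.6, pandas 2.3.3 and matplotlib 3.10.9 under Python 3.11.15.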

Additional observations from a re-analysis of the deposited data

How the results depend on the processing

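Of 112 values of the 8 called members under 14 alternatives each, 37 lost the call, 27 of them on leaving out an array, and 0 turned sign while called. Of 406 values of the other 29 members, 22 gained one. Members higher and lower numbered 2 and 0 with the replicate block, where Asns (adjusted p = 0.0425) and Shmt2 (0.0460) passed, 8 and 8 with array weights, which set AML 3 lowest (0.286) and added Atf4, Calr, Chac1 and Syvn1 higher and Dnajb9, Dnajc3, Ern1 and Ppp1r15a lower, 3 and 7 with median centring, and 3 and 1 with a 1.5-fold minimum. Leaving out an array gave 1 to 5 higher and 0 to 5 lower. Over all genes, higher and lower numbered 206 and 861 with the block, 4839 and 3014 with array weights, 505 and 2712 with median centring, and 439 and 1126 with a 1.5-fold minimum. Leaving out an array gave 185 to 1639 higher and 782 to 1967 lower. Class medians moved by more than the spread between arrays only under median centring, to -0.51 in sensors, -0.35 in chaperones and -0.18 in degradation genes. The cause of these shifts in counts was not tested, and neither was the part of the fewer samples left when an array is dropped. Same-numbered arrays did not pair, so a call lost with the block is not a weaker effect.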
